A study of Mus musculus with 36 samples.

Results

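The regions described here are 542 stretches of open chromatin that lost accessibility in mouse dendritic cells after each of 5 innate immune ligands given alone. The assay was ATAC-seq. A transposase cuts open DNA and leaves sequencing adapters in it, so that the number of reads in a peak follows how open it is. The cells were grown from marrow of female C57BL/6J mice in medium with GM-CSF, the labels giving the strain as C57BL/6, the age as 6 to 8 weeks and a stimulation of 6 h. The 18 groups, each with 2 libraries, are unstimulated cells (Ctrl), 6 ligands alone, 8 pairs and 3 triplets.

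In the labels, P stands for PAM, L for LPS, H for HMW, S for SeV, cG for 3',3'-cGAMP and Z for depleted zymosan. Several letters together name a combination. The pairs are PL, PH, LH, PS, PcG, ScG, ZS and ZcG, and the triplets are PLH, PScG and ZScG. All groups share the strain and the culture, and no group carries a genetic change in the labels. GM-CSF cultures of marrow hold macrophage-like cells besides dendritic cells, so a bulk library cannot tell fewer cells of a type from less open chromatin in each cell. The labels do not say whether the 2 libraries of a group came from separate cultures or mice, so p-values measure the spread between these libraries, which may be technical.

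A peak was taken when its difference from Ctrl, called d here, was -1 or lower in P, L, H, S and cG alike. For d, CPM values (counts scaled to a common library total) were taken over chromosomes 1 to 19, 0.5 was added, log2 was taken and each library was centred on its median peak. A d of -1 thus stands for about 1 log2 unit less accessibility than Ctrl. The rule found 542 of 116557 peaks, or 0.465%, against 797 peaks (0.684%) with d of 1 or higher in the same ligands. The regions were thus chosen by their measured values in these 6 groups, so every comparison with Ctrl below is a description without a test.

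Open chromatin away from genes marks enhancers, which bind transcription factors and act on promoters at a distance. In macrophages and dendritic cells, lineage factors such as PU.1, C/EBP, MEF2 and MAF proteins hold a resting set of enhancers open. Ligands of pattern recognition receptors activate NF-kappaB, AP-1 and IRF proteins, which open further enhancers, while part of the resting set is known to lose activity in the same hours. LPS acts through TLR4, cyclic dinucleotides such as cGAMP bind STING, and the beta-glucan of zymosan is bound by Dectin-1, the product of Clec7a.

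Of the 521 closed regions on chromosomes that the RefSeq start table of GRCm38.p6 covers, 11 (2.11%) overlapped a transcript start, against 9.18% of all peaks there. The 250 bases before a start overlapped 12 of the 521, and the sequences of 6 of those promoters show how they differ. Dhrs3, Apoe and Gm45969 (a transcript start 0 bases from the region beside Clec7a) belong to regions named by the rule in the methods, whereas Bank1, Hebp2 and Hdac9 were added as the other protein-coding genes after their values were seen. For Dhrs3, which has several starts, the most upstream window is shown. Capitals mark matches on either strand to the motifs listed after the sequences, each read 5' to 3' on the strand of the gene.
Dhrs3: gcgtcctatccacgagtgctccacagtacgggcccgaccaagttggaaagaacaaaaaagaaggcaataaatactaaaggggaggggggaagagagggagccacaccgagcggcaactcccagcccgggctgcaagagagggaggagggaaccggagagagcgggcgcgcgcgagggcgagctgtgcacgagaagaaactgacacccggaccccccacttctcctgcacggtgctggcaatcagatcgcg
Apoe: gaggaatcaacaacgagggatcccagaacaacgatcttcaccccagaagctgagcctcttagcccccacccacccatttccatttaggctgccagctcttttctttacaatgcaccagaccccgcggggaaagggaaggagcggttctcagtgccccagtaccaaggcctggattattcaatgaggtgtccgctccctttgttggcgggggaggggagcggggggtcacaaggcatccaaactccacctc
Gm45969: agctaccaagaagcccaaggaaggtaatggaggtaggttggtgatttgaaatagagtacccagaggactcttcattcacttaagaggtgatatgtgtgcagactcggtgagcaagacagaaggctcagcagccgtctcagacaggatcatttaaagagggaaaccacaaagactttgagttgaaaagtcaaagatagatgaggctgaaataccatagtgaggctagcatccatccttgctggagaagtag
Bank1: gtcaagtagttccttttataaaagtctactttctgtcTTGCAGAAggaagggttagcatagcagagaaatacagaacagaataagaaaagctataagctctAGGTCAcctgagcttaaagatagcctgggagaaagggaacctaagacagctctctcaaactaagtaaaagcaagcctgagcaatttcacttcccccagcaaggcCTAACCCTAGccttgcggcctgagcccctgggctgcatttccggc
Hebp2: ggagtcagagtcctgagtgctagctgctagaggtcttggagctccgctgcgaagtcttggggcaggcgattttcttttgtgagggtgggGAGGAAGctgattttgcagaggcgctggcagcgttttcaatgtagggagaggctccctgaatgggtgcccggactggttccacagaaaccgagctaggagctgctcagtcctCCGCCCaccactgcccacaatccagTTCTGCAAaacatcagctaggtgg
Hdac9: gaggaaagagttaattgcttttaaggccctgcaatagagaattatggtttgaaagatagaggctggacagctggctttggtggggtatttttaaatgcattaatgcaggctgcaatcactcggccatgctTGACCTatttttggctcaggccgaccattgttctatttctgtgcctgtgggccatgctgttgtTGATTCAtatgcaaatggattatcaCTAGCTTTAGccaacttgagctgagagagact

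These windows lie at chr4:144892577-144892826 (plus strand), chr7:19699189-19699438 (minus), chr6:129460102-129460351 (plus), chr3:136326067-136326316 (minus), chr10:18546077-18546326 (minus) and chr12:34528890-34529139 (minus). The motifs searched were AP-1 (TGANTCA), PU.1 (GAGGAAG), NF-kappaB (GGGANTTTCC), IRF (GAAANNGAAA), C/EBP (TTGCNNAA), MEF2 (CTANNNNTAG), a GC box (GGGCGG), an E-box (CACGTG) and a nuclear receptor half-site (AGGTCA). The Bank1 window held C/EBP, MEF2 and half-site letters, the Hebp2 window PU.1, C/EBP and GC box letters, and the Hdac9 window AP-1, MEF2 and half-site letters. The printed windows of Dhrs3, Apoe and Gm45969 held none of the 9. Further downstream, the Dhrs3 windows at chr4:144892827-144893076 and chr4:144892887-144893136, in the same region, each held IRF and C/EBP letters. Among all 32851 windows of this length, 6.75% held the AP-1 letters, 10.6% PU.1, 0.356% NF-kappaB, 2.98% IRF, 9.56% C/EBP, 3.2% MEF2, 32.7% the GC box, 6.02% the E-box and 14% the half-site. A match is a description of the letters and does not show that a factor binds there.

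At the Bank1 start, accessibility was 21.4 and 28.7 CPM in the Ctrl libraries, 11.1 and 12.8 in the Z libraries and 6.35 to 12.9 (median 9.92) in the 10 libraries of the 5 ligands. Bank1 encodes an adaptor of lymphocyte receptor signalling. Hdac9, a class IIa histone deacetylase known to bind MEF2 proteins, had 4.04 and 4.67 CPM in Ctrl, 0.986 and 1.26 in Z and 0.899 to 2.11 in the ligand libraries. Neither gene's ligand libraries overlapped those of Ctrl, a gap the rule favours.

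Total counts were 19097027 to 39977088 per library, of which 7884137 to 21406698 lay on chromosomes 1 to 19, and 1 count was worth 0.0467 to 0.127 CPM. A peak over the mitochondrial genome took 57.3% to 63.1% of the counts in the 10 libraries of Ctrl, Z, ZcG, ScG and ZScG and 44.1% to 58.1% in the 26 others. For the 5 ligands that chose the regions, this share and the stimulation cannot be told apart in d. Replicates correlated at 0.930 to 0.968 across peaks. Of 14 marker genes of dendritic and GM-CSF-cultured cells, 13 had a peak within 1 kb of a gene end, with 2.39 (Zbtb46) to 52.2 CPM (Csf2ra) in Ctrl, and Cd209a had none. Such a peak was also found for 7 of 8 macrophage markers, 3 of 6 neutrophil markers and 0 of 4 of T and NK cells. Of other lineages, 2 of 4 B cell, 2 of 4 erythroid and megakaryocyte, 2 of 3 stromal and 1 of 4 mast cell and basophil markers had one. Only Pf4, of the erythroid and megakaryocyte list, had a closed region there. Summed over all peaks of its list, macrophage marker accessibility was 170 and 167 CPM in Ctrl, 135 and 155 in Z and 169 to 211 in the ligand libraries. The neutrophil sum was 36.7 and 29.7 CPM in Ctrl, 38 and 34.2 in Z and 25.7 to 58.6 with the ligands. The dendritic sum was 230.2 and 256.3 CPM in Ctrl, 247.6 and 254.6 in Z and 301.4 to 376.3 with the ligands, and the stromal sum was 5.77 and 6.28, 5.7 and 5.96, and 6.87 to 11.8. For both lists all 10 ligand libraries lay above Ctrl. These sums are of CPM without centring. On that scale the median of all peaks also lay above Ctrl in the ligands, by 0.23 (P) to 0.37 (L) log2 units. The part of such cells in the results was not tested.

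S and cG lowered the 542 regions most in these libraries and H least. The median d was -1.37 in P, -1.53 in L, -1.199 in H, -1.64 in S and -1.56 in cG, while over all peaks it was between -0.064 (P) and 0.035 (cG). Peaks at -1 or lower made up 4.27% of all peaks in P, 4.73% in L, 1.8% in H, 7.01% in S and 6.01% in cG, shares that the rule drew on. H had the highest of the 5 values in 286 regions and S the lowest in 192. H was the ligand that bounded the set: dropping it from the rule would have given 1156 peaks in place of 542. At the threshold itself, the region beside Myc had -1.0025 as its highest value and was kept, and a peak nearest to Lactb2 was left out with -0.9995. Their Ctrl libraries, 3.02 and 2.58 CPM beside Myc and 2.38 and 2.92 beside Lactb2, do not set the kept peak apart from the other.

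Z, which had no part in the rule, had intermediate values at most of these regions. Its median d was -0.93, against 0.00092 over all peaks, and 235 of the 542 regions (43.4%) reached -1, where 1.86% of all peaks did. Z lay below Ctrl in 534 regions, and both Z libraries lay below both Ctrl libraries in 484, where 22.6% of all peaks did. In 404 regions Z was higher than all 5 ligands, and in 13 it was lower. The rule held the 5 ligands but not Z at -1 or lower, which favours the first count, and no share of all peaks is given for it. The median CPM over the regions was 4.30 in each Ctrl library, 1.86 and 2.08 in the Z libraries. These values share the Ctrl libraries that chose the regions, so they describe Z and do not test it.

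**Figure D1:**
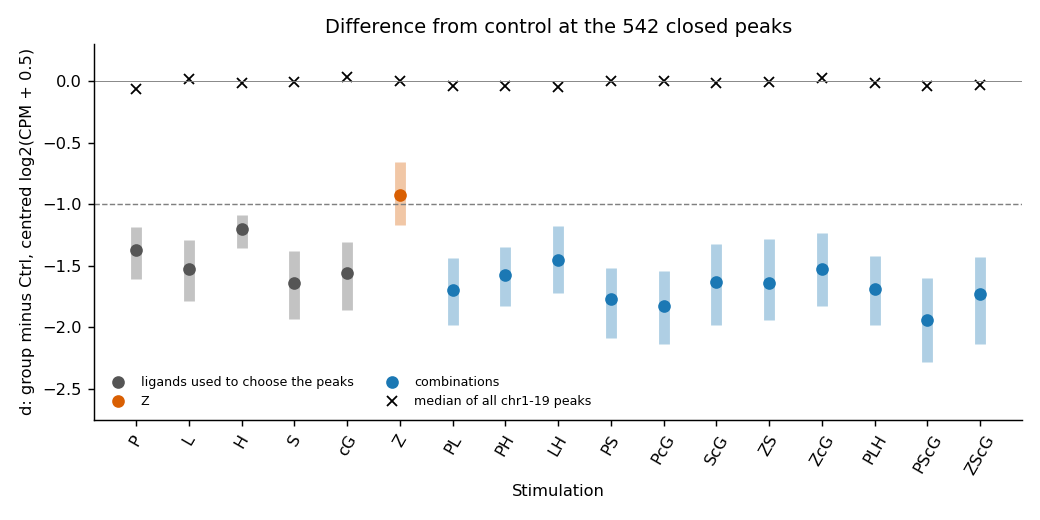
Median d of the 542 regions for each stimulation (points) with the middle 50% of regions (bars), on the log2 scale, and the median of all peaks on chromosomes 1 to 19 (crosses). The dashed line is the rule's limit of -1, which Z (-0.93) does not reach, while the combinations lie between -1.45 (LH) and -1.94 (PScG).

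Because all d values rest on the same 2 Ctrl libraries, a Ctrl library that read too high at a peak would lower d in all ligands together. The 2 Ctrl libraries differed by a median of 0.15 log2 units over the regions, and 15 regions (2.77%) were more than 1 unit apart, against 5.40% of all peaks. Applying the rule to 1 replicate and reading the other, with no library in common, gave smaller values. Replicate 1 chose 1031 peaks, at which the replicate 2 libraries had a median d of -0.90 in P, -1.01 in L, -0.70 in H, -1.205 in S, -1.12 in cG and -0.50 in Z. In replicate 2, 123 of these 1031 (11.9%) again reached -1 in all 5 ligands, where 0.465% of all peaks did. Replicate 2 chose 542 peaks, and the replicate 1 libraries gave -1.03 in P, -1.14 in L, -0.84 in H, -1.24 in S, -1.15 in cG and -0.61 in Z, with 123 (22.7%) reaching -1 throughout against 0.885% of all peaks. The set depended on both Ctrl libraries. Without Ctrl replicate 2 the rule took 1141 peaks, of which 449 were among the 542. Without Ctrl replicate 1 it took 741, of which 349 were among the 542. Taking the Z libraries as base in place of Ctrl gave 100 peaks, 16 of them among the 542, which is 2.95% of the regions and 16% of the 100.

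**Figure D2:**
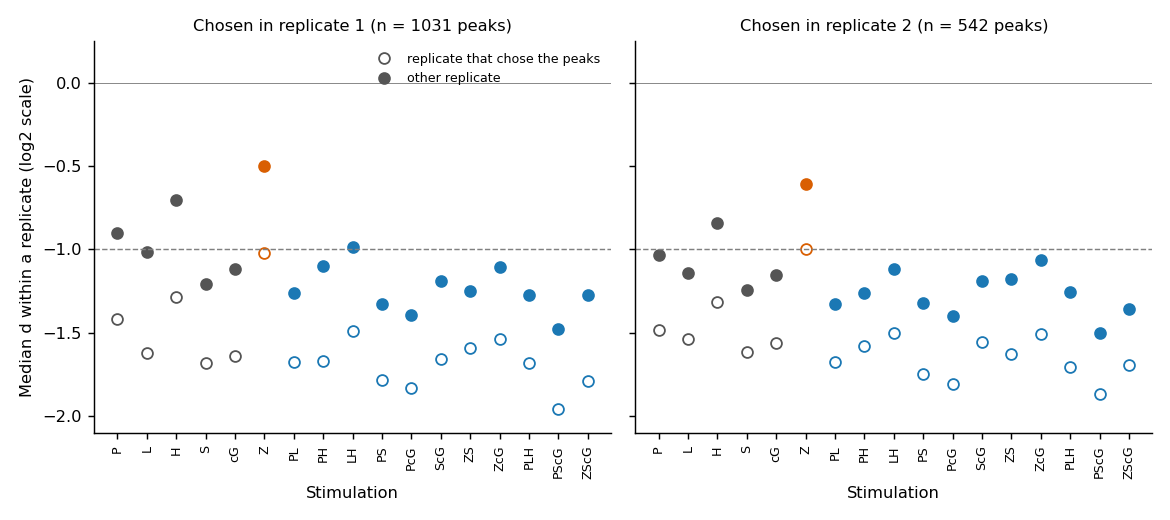
Median d on the log2 scale for peaks that 1 replicate chose (1031 left, 542 right), read in the libraries that chose them (open circles) and in the other replicate (filled circles). The filled values for P are -0.90 and -1.03 and those for Z -0.50 and -0.61, all below 0 and closer to it than the open ones.

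Combinations were described against Ctrl in the same way. Of the 542 regions, PL had 525 at -1 or lower, PH 521, LH 487, PS 530, PcG 530, ScG 496, ZS 488, ZcG 471, PLH 526, PScG 530 and ZScG 504. All 542 were below Ctrl in each of the 11 combinations. Over all peaks PL had 7.24% at -1 or lower, PH 5.36%, LH 4.8%, PS 7.74%, PcG 8.1%, ScG 8.29%, ZS 8.35%, ZcG 6.37%, PLH 7.17%, PScG 11.2% and ZScG 11.1%. The lowest median was that of PScG, -1.94. PScG lay below each of P, S and cG in 329 regions, and PLH below each of P, L and H in 280. No share of all peaks is given for these counts or for that of regions below Ctrl. They thus do not show that a combination adds to its single ligands.

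Each combination was also compared with Z, a contrast that holds no Ctrl library and no library that chose the regions. It is not free of the rule. Each combination contains a ligand that the rule held at -1 or lower, whereas Z was left free, which favours values below Z. The spread was estimated from all 36 libraries, those of Ctrl and the ligands included. In all 11 combinations the regions were less open than in Z, with edgeR calling 21.1% to 49.8% of them lower at an adjusted p under 0.05. PScG had the most, 269 of 540 tested (background 12.7% of all tested peaks, median log2 fold change -1.28), and 2 regions were not tested because of low counts. PcG followed with 250 (background 10.3%, median -1.195) and PS with 233 (10.6%, -1.10). ZScG had 201 (11.5%, -1.06), PLH 194 (9.65%, -0.94), PL 177 (8.48%, -0.98), ScG 171 (8.15%, -0.92), ZS 151 (8.53%, -0.89), PH 148 (7.03%, -0.81), ZcG 132 (4.95%, -0.85) and LH 114 (6.76%, -0.62). Over all peaks the medians were between -0.0083 (PH) and 0.027 (PLH). In PS 1 region was higher than Z (background 10.1%), beside Ppip5k2, and in PLH 1 (7.57%). The other 9 combinations had 0 higher by edgeR and 0 by DESeq2, with 0 (PcG and ZScG) to 6 (LH) at an unadjusted p under 0.05 by edgeR, against backgrounds of 6.78% in PL, 5.84% in PH, 5.32% in LH, 8.95% in PcG, 7.48% in ScG, 6.63% in ZS, 4.12% in ZcG, 12% in PScG and 9.09% in ZScG.

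These 11 counts share the 2 Z libraries, and ScG, ZcG and ZScG have a mitochondrial share like that of Z. Fitted within those high-share groups alone, they had 168, 131 and 197 regions lower. With libraries scaled by total counts instead, the other combinations fell most: PL had 117, PH 80, LH 54, PS 139, PcG 155 and PLH 120. Leaving out a library changed 10 counts by over 1.5 times, and PScG had 184 to 222. Without Z replicate 2 the counts were 87 in PH, 58 in LH, 154 in PS, 159 in PcG, 113 in ScG, 89 in ZS, 69 in ZcG and 132 in ZScG, and without Z replicate 1 they were 94 in PH, 73 in LH and 85 in ZcG. Leaving out PL replicate 1 or 2 gave 113 or 112, PH replicate 1 gave 91, LH replicate 1 gave 57, PS replicate 2 gave 153, ScG replicate 1 gave 111, ZS replicate 2 gave 87, ZcG replicate 1 or 2 gave 77 or 65, PLH replicate 2 gave 124 and ZScG replicate 1 gave 128.

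**Figure D3:**
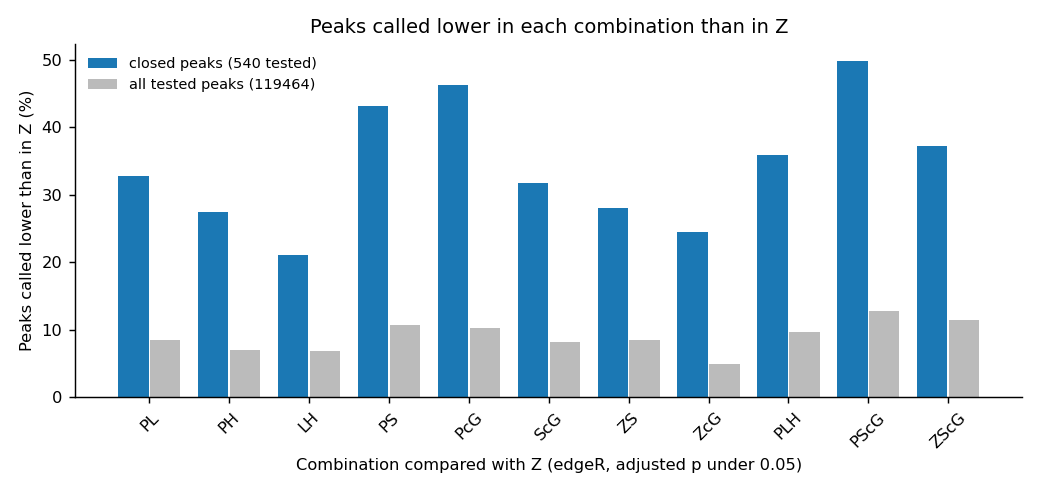
Percent of the 540 tested regions (blue) and of all 119464 tested peaks (grey) called lower in each combination than in Z by edgeR. The blue bar is the higher in all 11 combinations, from 21.1% against 6.76% in LH to 49.8% against 12.7% in PScG.

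Of the 540 tested regions, 353 (65.4%) were lower than Z in at least 1 combination, 51 in all 11 and 187 in none. The matching shares of all tested peaks are not given here, so these counts describe the regions without a background. The call followed how open a region was in Z. The 187 had a median of 0.928 CPM in Z, and the 353 had 3.16. In ZScG, 91.2% of the regions above 5 CPM in Z were called lower, against 31.7% of all tested peaks above 5 CPM. Between 2 and 5 CPM the shares were 53.2% and 13.1%, between 1 and 2 CPM 10.1% and 2.91%, and under 1 CPM 1.68% and 0.325%. A missing call does not show that a region kept its Z level.

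Beside Cd34, a sialomucin of blood progenitors, the region at chr1:194927717-194928479 was close to Ctrl in Z and low in all other groups. CPM was 31.5 and 26.8 in Ctrl, 21 and 25.2 in Z, 15.9 and 15.6 in P, 13.7 and 11.3 in L, 17.6 and 15.6 in H, 8.67 and 10.7 in S and 9.16 and 8.03 in cG. The pairs had 13 and 8.82 in PL, 14.8 and 11.5 in PH, 11.6 and 16.8 in LH, 9 and 11.4 in PS, 10 and 9.36 in PcG, 8.48 and 5.55 in ScG, 11 and 9.17 in ZS and 9.01 and 8.63 in ZcG. The triplets had 13.4 and 11.1 in PLH, 7.3 and 8.73 in PScG and 7.86 and 8.24 in ZScG. No library of a combination reached the lower Z library, and the fall against Z was called in all 11 combinations, with a log2 fold change of -1.64 ± 0.19 (SE) in ZScG (adjusted p 2.44e-12). The weakest was LH, -1.05 ± 0.17.

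Natriuretic peptides are cleared by the receptor that Npr3 encodes, and the region nearest to it, chr15:11715934-11716934, lies 122962 bases away. It had 41.3 and 39.2 CPM in Ctrl, 21.8 and 20.3 in Z, 10.8 to 25.9 (median 17.2) in the ligand libraries and 4.82 to 20.2 (median 10.4) in the 22 libraries of combinations. Unlike Cd34, Z was about as low here as P. The triplets with S and cG had 6.30 and 7.93 CPM (PScG) and 6.73 and 4.82 (ZScG), among the lowest libraries, and 1 ZcG library had 7.61. Its log2 fold change against Z was -1.95 ± 0.18 in PScG and -1.96 ± 0.19 in ZScG (adjusted p 7.09e-19 and 1.4e-16).

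Dhrs3 encodes a retinaldehyde reductase that limits retinoic acid, and its region, chr4:144891954-144893172, covers the start sequence printed above. CPM was 43.5 and 51.7 in Ctrl, 21.9 and 24.1 in Z, 19.6 to 27.1 (median 23.4) in the ligand libraries and 10.9 to 23.5 (median 15.2) in combinations. Z and the ligands overlapped in CPM, while the centred d was -1.006 in Z and -1.13 (H) to -1.53 (P) in the ligands. Against Z it was lower in 9 of 11 combinations, by -0.99 ± 0.16 in ZScG (adjusted p 2.52e-07), and LH (-0.38 ± 0.14, adjusted p 0.063) and ZcG (-0.41 ± 0.15, adjusted p 0.07) were not called.

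Of the 8 regions most open in Z, 6 were lower than Z in all 11 combinations: those beside Cd34, Npr3, Trf, Olfr69, Rnf150 and Scgb2b26. They were picked by their Z level, and no share of all peaks is given for this count. Trf, the gene of the iron carrier transferrin, holds its region at chr9:103229882-103231149, with 40.3 and 39.0 CPM in Ctrl and 23.6 and 22.0 in Z. Its fall in ZScG was -0.75 ± 0.16 (adjusted p 0.000104). The other 2 were the Dhrs3 region and chr12:113423783-113425642, nearest to Adam6b at 63923 bases, with 61.5 and 61.6 CPM in Ctrl and 29.6 and 35.9 in Z. The Adam6b region was lower than Z in 8 of 11 combinations, by -0.92 ± 0.14 in PL, and was not called in ScG, ZS or ZScG. ZScG had 40 and 28.4 CPM there, a log2 fold change of -0.04 ± 0.14 (adjusted p 0.871) that did not hold its sign under 4 alternatives.

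**Figure D4:**
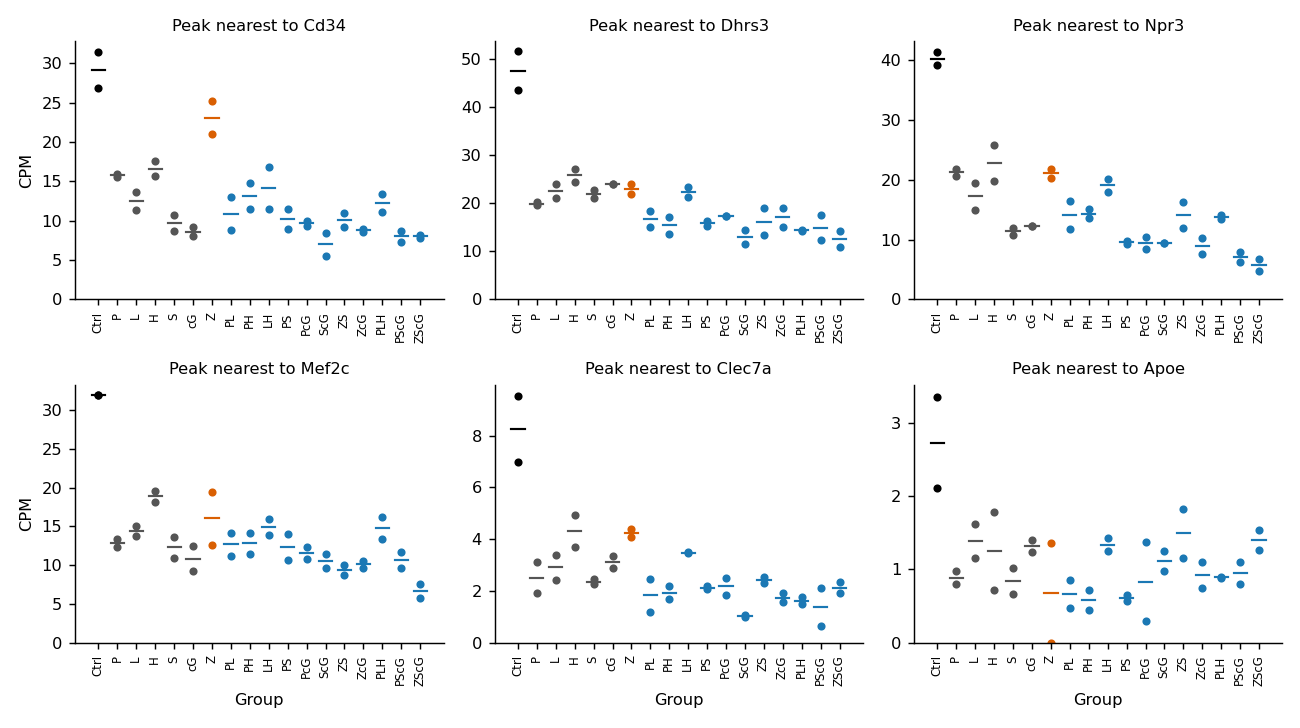
CPM in each library (points) and group mean (lines) at 6 regions, in 18 groups of 2 libraries, with Ctrl in black, the 5 ligands in grey, Z in orange and combinations in blue. Cd34 has Z (21 and 25.2) near Ctrl, the other 5 have Z within or near the ligands, and Apoe has 1 Z library at 0. The CPM shown are not centred on the library median, unlike d.

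Of the 1054 peaks nearest to lineage factor genes, the list with the most peaks, 10 were closed (0.949%, against 0.465% of all peaks), among them regions beside Mef2c, Maf, Cebpa, Zeb2, Tfec and Batf3. Against Z, 7 of the 10 were lower in at least 1 combination and 4 in ZScG (background 11.5% of all tested peaks), close to the shares of all 540 tested regions, of which 353 and 201 were lower. Mef2c, a MADS-box factor of myeloid cells, had 4 of its 57 peaks among the regions. Its strongest, inside the gene at chr13:83571870-83572888, had 31.96 and 31.89 CPM in Ctrl, 12.6 and 19.4 in Z, 9.27 to 19.6 (median 13.5) with the ligands and 5.71 to 16.2 (median 11.3) in combinations. The Z libraries spanned much of the ligand range in CPM, while the centred d was -0.98 in Z and -1.01 (H) to -1.77 (cG) in the ligands. It was lower than Z in 10 of 11 combinations, by -1.38 ± 0.20 in ZScG (adjusted p 1.43e-08), with LH the exception (-0.45 ± 0.17, adjusted p 0.075). The other 3 lie 467730 to 482756 bases from the gene and had 3.25 CPM or less on average in Ctrl.

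Maf, a factor of resident macrophages, had its region 52557 bases away at chr8:115650090-115650696. CPM was 15.4 and 17.2 in Ctrl, 6.46 and 5.51 in Z, 2.17 to 8.01 (median 4.88) with the ligands and 0.901 to 5.20 (median 2.64) in combinations. All combination libraries lay below both Z libraries. It was lower than Z in 10 of 11, by -1.97 ± 0.36 in ZScG (adjusted p 7.21e-06). Beside Cebpa, the granulocyte and monocyte factor, chr7:35098710-35099224 had 6.79 and 8.24 CPM in Ctrl and 3.94 and 1.99 in Z, and fell by 1.78 ± 0.49 on the log2 scale in ZScG (adjusted p 0.00397). Regions of Tfec and Zeb2 did not pass in ZScG.

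Receptors for uptake had 4 regions among 334 peaks (1.198%, against 0.465% of all peaks). The region beside Clec7a, which encodes Dectin-1, lies 311 bases from the gene at chr6:129460210-129461280 and overlaps the Gm45969 start printed above. It had 9.52 and 6.96 CPM in Ctrl, 4.38 and 4.06 in Z, 1.90 to 4.91 (median 2.99) with the ligands and 0.641 to 3.48 (median 1.98) in combinations. Every combination library lay below both Z libraries. It was lower in 9 of 11, lowest in ScG (-2.16 ± 0.43, adjusted p 4.68e-05), and its call in ZScG (-1.09 ± 0.39, adjusted p 0.0354) was lost when any 1 of the 4 libraries was left out (-0.94 to -1.26). Cd36, a scavenger receptor for fatty acids and oxidised lipids, had a region at chr5:17774590-17776046 with 11.4 and 9.46 CPM in Ctrl, 2.74 and 4.52 in Z and 0.935 to 6.03 with the ligands, lower than Z in 7 of 11 combinations. Mrc1, the mannose receptor, had 2.67 and 4.30 CPM in Ctrl and 0.329 and 1.26 in Z and was not called in any.

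Sensors of microbes had 2 regions among 254 peaks (0.787%). Tlr3, a sensor of double-stranded RNA, had 17.5 and 17.6 CPM in Ctrl, 8.44 and 8.94 in Z, 5.54 to 11.1 (median 7.74) with the ligands and 2.66 to 8.30 (median 5.12) in combinations at chr8:45414881-45415556, 3806 bases away. It was lower than Z in 10 of 11 combinations, by -1.50 ± 0.28 in ZScG (adjusted p 7.51e-06). Tirap, the adaptor of TLR2 and TLR4, had 6.78 and 5.93 CPM in Ctrl and 2.41 and 2.62 in Z at chr9:35183341-35183765, and no combination was called lower than Z. Beside Apoe, the apolipoprotein gene, chr7:19698983-19699423 had 2.11 and 3.35 CPM in Ctrl and 0 and 1.36 in Z, and its ZScG value of 0.86 ± 0.66 (adjusted p 0.381) rested on single Z libraries: it was -0.018 without Z replicate 1, and without Z replicate 2, which leaves Z at 0 counts, edgeR called it higher (adjusted p 0.00668).

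The inflammatory and interferon lists held no closed region. Among 223 peaks nearest to the inflammatory list, 0 were closed and 13 were opened by all 5 ligands, and among 81 of the interferon list 0 were closed and 1 opened. Antigen presentation genes (131 peaks), lysosome and autophagy genes (182) and respiratory chain genes (67) also had 0. With 0.465% of all peaks closed, lists of this size would hold few in any case. Beyond the lists, Celf4, Hpgd, Mef2c and Slc9a9 had 4 regions each and Cd93 and Arhgap18 had 3, so some regions share a gene and are not independent.

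Closed regions lay farther from genes than peaks at large. The median distance to the nearest end of a protein-coding gene was 33166 bases, against 13711 for all peaks and 16734 for the opened peaks. Within 1 kb of such an end were 24 regions (4.43%), against 14.3% and 6.27%, and beyond 100 kb were 132 (24.4%), against 10.8% and 9.66%. They were also narrow, with a median width of 412.5 bases against 451 for all peaks and 660 for opened ones, and 267 (49.3%) lay inside a coding gene against 59.3% and 52.3%. Another closed region lay within 100 kb of 111 of them (20.5%). The same share, each within its own set, was 36.1% for opened peaks and 99.2% for all peaks. It rises with the number of peaks in a set. The median Ctrl level was 4.25 CPM against 1.81 for all peaks, which the rule favours.

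**Figure D5:**
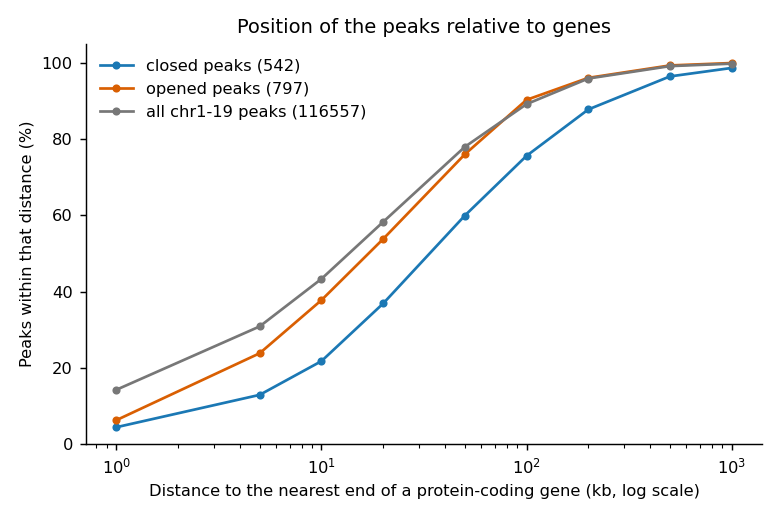
Percent of peaks within a given distance of a coding gene's nearer end (kb, log axis), for the closed regions, the opened peaks and all peaks. At 100 kb the curves stand at 75.7% (closed), 90.3% (opened) and 89.2% (all).

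Peaks beside the regions were lower too. For 368 regions the nearest peak outside the set was tested and lay within 10 kb. These nearest peaks, 361 distinct ones, had a median log2 fold change of ZScG against Z of -0.48, against 0.02 over all tested peaks. Of these, 86 (23.8%, background 11.5%) were lower and 11 (3.05%, background 9.09%) higher by edgeR.

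The steepest called falls in ZScG against Z were at weak regions, where few counts remained. Inside Fndc7, chr3:108865161-108865495 had 14 and 21 counts in Z and 0 and 2 in ZScG, so Z was 15.3 times ZScG (95% exact interval from counting error only, 3.94 to 132). Beside Tmem64, 26 and 14 counts in Z stood against 3 and 0 in ZScG, a ratio of 11.7 (3.72 to 59). The region inside Astn2 had 14 and 20 counts against 2 and 2, a ratio of 7.44 (2.65 to 28.9), and its call in ZScG was lost without ZScG replicate 1. Regions of 9530057J20Rik, Jade1, Pkia and Rap2b had ratios of 6.83 to 12, and for Jade1, Pkia and Rap2b the call was lost when a library was left out: Z replicate 1 for Jade1 and Rap2b, Z replicate 2 for Pkia, ZScG replicate 1 for Pkia and Jade1, and ZScG replicate 2 for Jade1 and Rap2b. Without these, their log2 fold changes were -1.94 to -3.38.

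The highest values in ZScG against Z, none of them called, were at regions where Z was near its floor. Gm36375 had 0.11 and 0.181 CPM in Z and 0.612 and 0.507 in ZScG, a log2 fold change of 1.76 ± 1.11 (adjusted p 0.27). Fyn, a Src-family kinase gene, had 0.657 and 0.361 CPM in Z and 1.63 and 0.888 in ZScG. Kctd12 had 0.657 and 0.542 CPM in Z and 0.816 and 2.28 in ZScG. Ppip5k2, of inositol pyrophosphate synthesis, had 0.11 and 0.361 CPM in Z and 0.85 and 2.43 in PS, where it was called higher (2.31 ± 0.77, adjusted p 0.0199).

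Few regions were called different between a triplet and its pairs. In simulated data for ZScG against Z, 17 of 100 peaks lowered 2-fold were called, so missing calls do not show equal levels. PLH was lower than PL at 0 regions and higher at 0 (backgrounds 0% and 0.000837%; 9 lower and 13 higher at an unadjusted p under 0.05 by edgeR, and 0 by DESeq2 after adjustment), than PH at 1 (background 0.0896%) and than LH at 5 (0.203%), with 0 higher (0.158% and 0.343%). PScG was lower than PS at 1 region (0.234%), than PcG at 1 (0.21%) and than ScG at 24 (2.42%), the last across the mitochondrial split, with 0 higher (0.368%, 0.202% and 2.11%). ZScG was lower than ZS at 2 (0.0444%), than ZcG at 9 and higher at 1 (1.84% and 0.949%) and lower than ScG at 2 (0.448%), with 0 higher than ZS (0.0142%) or ScG (0.324%). For these 7 comparisons with 0 higher, edgeR had 3 to 9 at an unadjusted p under 0.05, and DESeq2 had 0 after adjustment. The median differences were between -0.36 (PScG and ScG) and -0.01 (PLH and PL). Leaving out a library moved the largest of these counts, 24, to 12 without ScG replicate 1, 8 without ScG replicate 2, 11 without PScG replicate 1 and 6 without PScG replicate 2, and the other counts to between 0 and 6.

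In the median over the regions, S and cG added to Z lowered them by less together than the sum of what each did alone. Against Z, ZS was lower at 151 and ZcG at 132, of which 95 were shared (62.9% of the former and 72% of the latter). The backgrounds were 8.53% of all tested peaks in ZS and 4.95% in ZcG, and that of the shared calls is not given here. The interaction, ZScG minus ZS minus ZcG plus Z on the log2 scale, holds no Ctrl library and no library that chose the regions, and it was computed after related values had been seen. Its median was 0.64 over the 540 regions, against -0.022 over all peaks, and it was above 0 in 410, for which no share of all peaks is given. It was called positive at 16 regions (2.96%, background 0.642%) and negative at 0 (background 0.946%; 4 at an unadjusted p under 0.05, and 0 after adjustment by DESeq2). Without Z replicate 2 the 16 became 8, without ZS replicate 2 they became 10, without ZcG replicate 2 they became 7 and without either ZScG library they became 9, and scaling by total counts left 8. Of the 16, 12 had over 5 CPM in Z, where 102 of the regions lie. The 797 opened peaks had an interaction of the opposite sign, with a median of -0.344, 63 called negative and 1 positive. A joint effect smaller than the sum was thus not particular to the closed regions.

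Dock1, named here after its values were seen, showed the clearest case. Its region at chr7:134669387-134670100 had 14.1 and 12.9 CPM in Z, 3.35 and 5.21 in ZS, 4.71 and 4.83 in ZcG, 5.71 and 4.44 in ZScG and 3.36 and 3.92 in ScG. Either addition brought it down to about the level of both together, and the interaction was 1.85 ± 0.37 (adjusted p 0.000734). Dock1 encodes an activator of Rac used in engulfment. Cd34 behaved alike in CPM (given above), with 1.16 ± 0.28 (adjusted p 0.0111). Pdk4, a kinase that restrains pyruvate dehydrogenase, had 16.8 and 15.4 CPM in Z, 5.08 and 7.72 in ZS, 3.30 and 6.96 in ZcG and 5.61 and 4.06 in ZScG (interaction 1.34 ± 0.37, adjusted p 0.0296). Paip1, Ctnnd1, Tmtc1, Maf and Cd36 had called interactions of 1.92 to 2.94, at lower CPM and with errors of 0.47 to 0.69.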

How the data were processed

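ATAC-seq reads per peak were measured in 36 libraries (18 groups of 2), grouped and numbered by their titles, and all count columns were used. The authors deposited raw counts for 119751 peaks, whole numbers without normalization, and a list of peak positions, printed here counted from 1. Per the submitters' processing notes, the tools named are Bowtie2 2.2.9, MACS2 1.4, bedtools and featureCounts and the build is mm10. Whether peaks were called on pooled libraries, how duplicates were treated and whether read ends were shifted for the transposase is not given in the sources used here. Reads carry no molecular identifiers, so intervals cover counting error only.

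Members and lists were chosen with earlier results of these data known. CPM was computed over chromosomes 1 to 19 without the mitochondrial peak. Contrasts without Ctrl were tested on the deposited counts in edgeR 4.0.16 (R 4.3.3) with TMM, filterByExpr (minimum count 10, which dropped 286 peaks), trended dispersions and the robust quasi-likelihood test, all libraries in 1 fit with 18 residual degrees of freedom, and Benjamini-Hochberg adjustment over 119464 peaks within each contrast. An adjusted p under 0.05 was called. DESeq2 1.42.0, other scalings, no filter, thinning to 8181254 counts, a replicate block and leaving out each library were alternatives, and abundance-dependent offsets and the interaction of S and cG were added after values were seen. The test was checked on simulated data for ZScG against Z. It called 17 of 100 peaks lowered 2-fold and 66 of 100 lowered 4-fold, with 2 false calls, so many real changes can go uncalled. Only these lowered peaks were changed among the 108027 tested there, while 13680 were called lower in the data. The adjustment is stricter where few peaks change, so the shares called in the data may be higher.

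Named regions are the 8 with the highest CPM in Z, the 8 called ones with the lowest and the 4 with the highest log2 fold change of ZScG against Z, the 4 peaks on either side of the threshold, and list genes within 1 kb (4 found), and some of these results are not reported here. List regions farther away and the interaction genes were named after their values were seen. Each is given by its nearest protein-coding gene in RefSeq's GRCm38.p6 table, which is the same assembly as mm10, and a nearest gene need not be the one a region acts on. Replicate numbers did not pair libraries: deviations of same-numbered libraries correlated at -0.047 to 0.035 over 153 pairs of groups.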

Additional observations from a re-analysis of the deposited data

Results flagged for a closer look

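The response to S on Z differed with cG by a test of the difference itself, an interaction fitted in edgeR. At an adjusted p under 0.05, 16 closed regions had a positive interaction (2.96%, background 0.642% of all tested peaks). A negative one was called at 0 (background 0.946%), with 4 negative at an unadjusted p under 0.05 and 0 called negative in DESeq2. The 16 ranged from 0.73 beside Adam6b to 2.94 inside Ctnnd1 on the log2 scale.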

How the results depend on the processing

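The number of regions, 542 under the rule, was 209 with a pseudocount of 1, 852 with 0.25, 1475 at a limit of -0.8, 161 at -1.2, 84 without centring on the median, 100 with Z as base and 1031 from replicate 1 alone, and 509 to 1141 when 1 library was left out. Without centring, the median of all peaks rose by up to 0.37 (PcG) while all 542 stayed below Ctrl in all stimulations except Z (534). With total counts as scaling, regions lower than Z numbered 117 (PL), 80 (PH), 54 (LH), 139 (PS), 155 (PcG) and 120 (PLH). Between triplets and pairs, total counts gave 0 (PLH and PH), 3 (PLH and LH), 3 (PScG and PcG), 6 (PScG and ScG) and 1 (ZScG and ZcG), and 8 positive interactions. Thinning gave 0 (PLH and PH), 1 (PLH and LH), 0 (PScG and PcG), 15 (PScG and ScG) and 5 (ZScG and ZcG). Abundance-dependent offsets gave 0 (PLH and PH), 3 (PLH and LH), 0 (PScG and PS) and 3 (ZScG and ZcG), library medians gave 3 (PLH and LH), 2 (PScG and PS) and 3 (PScG and PcG), and DESeq2 gave 0 (PScG and PS), 2 (PScG and PcG) and 1 (ZScG and ZS).

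Leaving out 1 library left 112 to 138 regions lower than Z in PL, 87 to 102 in PH, 57 to 76 in LH, 153 to 189 in PS, 159 to 191 in PcG, 111 to 125 in ScG, 87 to 117 in ZS, 65 to 85 in ZcG, 124 to 145 in PLH, 184 to 222 in PScG and 128 to 154 in ZScG. Between triplets and pairs it left 0 to 0 (PLH and PL), 0 to 0 (PLH and PH), 0 to 2 (PLH and LH), 0 to 2 (PScG and PS), 0 to 1 (PScG and PcG), 6 to 12 (PScG and ScG), 0 to 1 (ZScG and ZS), 1 to 6 (ZScG and ZcG) and 0 to 2 (ZScG and ScG), and 7 to 14 interactions. A lone remaining library is assumed to vary like the other groups. With the replicate number as a block, 199 regions were lower in ZScG than in Z, against 201, and 16 interactions were called positive. All 124 medians against Z computed under alternatives were below 0, from -1.33 to -0.28.

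Signs turned in these cases, and no value with the turned sign was a call. The median of PLH minus PL was 0.025 with total counts and -0.042 to 0.032 when 1 library was left out. For ZScG against Z, Adam6b was 0.056 with total counts, 0.084 with abundance-dependent offsets and -0.32 to 0.19 with 1 library left out. Kif2a was -0.016 with abundance-dependent offsets and -0.23 to 0.32 with 1 library left out, and the same omissions gave -2.12 to 1.08 at Mcoln3, -1.02 to 2.28 at Ppip5k2, -0.57 to 0.21 at Myc and -0.018 to 7.34 at Apoe. The upper Apoe value keeps the sign and was called (adjusted p 0.00668), but against a lone Z library at 0 counts it depends on the prior count and is no estimate of a fold. The causes were not tested.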

Other observations

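At 8 closed regions Z was at or above Ctrl, among them 2 beside Snap25, a gene of vesicle fusion, and 1 each beside Tspan12, Sox4, Nedd9, Spertl and Slc16a12. At chr2:136676139-136676592, beside Snap25, CPM was 5.86 and 6.02 in Ctrl and 5.15 and 8.13 in Z. Beside Sox4, a SOX family transcription factor gene, chr13:28762509-28762908 had 4.76 and 2.84 CPM in Ctrl and 5.48 and 3.16 in Z. The Ctrl and Z libraries overlapped at both. At the other end, the lowest d in Z, -2.24, was at the region nearest to Igf1, which encodes an insulin-like growth factor. These regions were chosen after their values were seen.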
